A study of Mus musculus with 12 samples.

Results

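The genes described here are 10 transcriptional targets of p53 that were measured in whole mouse liver after an overdose of acetaminophen. They were taken by symbol from the table of 55401 genes: Mdm2, Cdkn1a, Gadd45a, Ccng1, Bbc3, Pmaip1, Bax, Aen, Phlda3 and Trp53inp1. Each symbol matched 1 gene, and all 10 passed the filter on low counts that left 17585 genes for testing.

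p53, encoded by Trp53, is a transcription factor that is held at a low level by the ubiquitin ligase MDM2 and accumulates when DNA damage, oxidative stress or other injury blocks that turnover. It then binds a response element in its target genes and raises their transcription. The targets include its own inhibitor Mdm2, genes that stop the cell cycle, genes that start mitochondrial apoptosis, and genes that act on autophagy and survival signalling. In hepatocytes, acetaminophen is oxidised to a reactive product that depletes glutathione and injures mitochondria and DNA.

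RNA was sequenced from 12 livers, 3 in each of 4 groups, and every mouse was a male aged 7 to 10 weeks. FBXL5ΔDC mice carried loxP-flanked Fbxl5 alleles (Fbxl5 F/F) and a Cre transgene under the promoter of CD11c, an integrin found chiefly on dendritic cells, and control mice carried the same flanked alleles without Cre. FBXL5 is the substrate-binding subunit of a ubiquitin ligase that degrades iron regulatory protein 2. The FBXL5ΔDC 6 h and control 6 h livers were collected 6 h after 1 intraperitoneal injection of acetaminophen, given at 300 or 500 mg/kg (which of these doses was not stated) to mice that had fasted for 16 h and were fed again afterwards. The FBXL5ΔDC 0 h and control 0 h livers came from untreated mice, and whether these were fasted was not stated, so that effects of acetaminophen and of fasting cannot be told apart. The deletion was aimed at cells that express CD11c, a minority in the liver, and the RNA came from the whole organ. A genotype difference in a hepatocyte gene is thus one between animals whose hepatocytes were not the target of the deletion. In whole-liver RNA, fewer cells of a type and less RNA per cell cannot be told apart. Nothing in the labels says how litters, cages or days were spread over the groups, so the p-values measure only the spread between these samples.

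Total estimated counts were 67.2 M to 72.5 M per library, and CPM stands for counts over TMM-scaled library size. Fbxl5 itself, whose deletion was aimed at a minority of cells, spanned 12.5 to 21.8 CPM in FBXL5ΔDC 6 h livers and 13.3 to 19.2 CPM in control 6 h livers. It spanned 10.3 to 21.4 CPM in FBXL5ΔDC 0 h livers and 17.6 to 22.0 CPM in control 0 h livers. Whole-liver RNA therefore gave no check of the deletion. Control 6 h replicate 3 stood apart from its group. On the first principal component, which held 39.8% of the variance, the FBXL5ΔDC 6 h libraries lay at 97.7 to 107.4, control 6 h replicate 3 at 86.8, control 6 h replicates 1 and 2 at −9.5 and −8.2, and the 6 libraries of 0 h livers between −67.0 and −57.5. The log2 changes of the targets and the list counts that rest on control 6 h livers are therefore given with and without replicate 3. Summed markers of some other cell types also differed between 6 h and 0 h livers, not all of them in both genotypes. The summed level of 5 stellate cell markers was 167 to 206 CPM in FBXL5ΔDC 6 h livers and 51.3 to 93.9 CPM in FBXL5ΔDC 0 h livers, that of 5 cholangiocyte markers 68.0 to 263 CPM and 20.0 to 25.6 CPM, and that of 5 endothelial markers 189 to 235 CPM and 93.8 to 119 CPM. In the same groups 5 hepatocyte markers summed to 102694 to 138265 CPM and 75284 to 85865 CPM, and no marker in these 4 lists was at 0 in every library of a group. In control 6 h and control 0 h livers the cholangiocyte sums were 27.2 to 82.0 CPM and 15.0 to 23.5 CPM. The stellate cell sums of these groups overlapped, at 96.3 to 150 CPM and 76.8 to 118 CPM. So did the endothelial sums, at 97.7 to 155 CPM and 91.4 to 110 CPM, and the hepatocyte sums, at 65922 to 112682 CPM and 71884 to 78589 CPM. The summed level of 5 neutrophil markers was 2.95 to 9.60 CPM in FBXL5ΔDC 6 h livers and 0.730 to 1.87 CPM in FBXL5ΔDC 0 h livers, and 2.66 to 3.46 CPM in control 6 h livers and 0.954 to 1.53 CPM in control 0 h livers, where Cxcr2 was at 0. Their part in the results below was not tested.

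In FBXL5ΔDC livers, acetaminophen was followed by a rise of 6 of the 10 p53 targets and a fall of 1. Cdkn1a, which encodes the cell cycle inhibitor p21, was 7.27-fold higher at 6 h than at 0 h, and Gadd45a, a growth arrest and DNA repair gene, was 33.8-fold higher. Mdm2, Aen, Phlda3 and Trp53inp1 rose between 2.39-fold and 3.91-fold. Ccng1 (cyclin G1) fell, and the pro-apoptotic genes Bbc3, Pmaip1 and Bax passed in neither direction. In the same test, 15.0% of all tested genes rose and 15.1% fell, 30.1% in all (edgeR quasi-likelihood test, Benjamini-Hochberg adjusted p below 0.05). The median log2 change was 1.36 over the 10 targets and 0.02 over all tested genes.

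**Figure D1:**
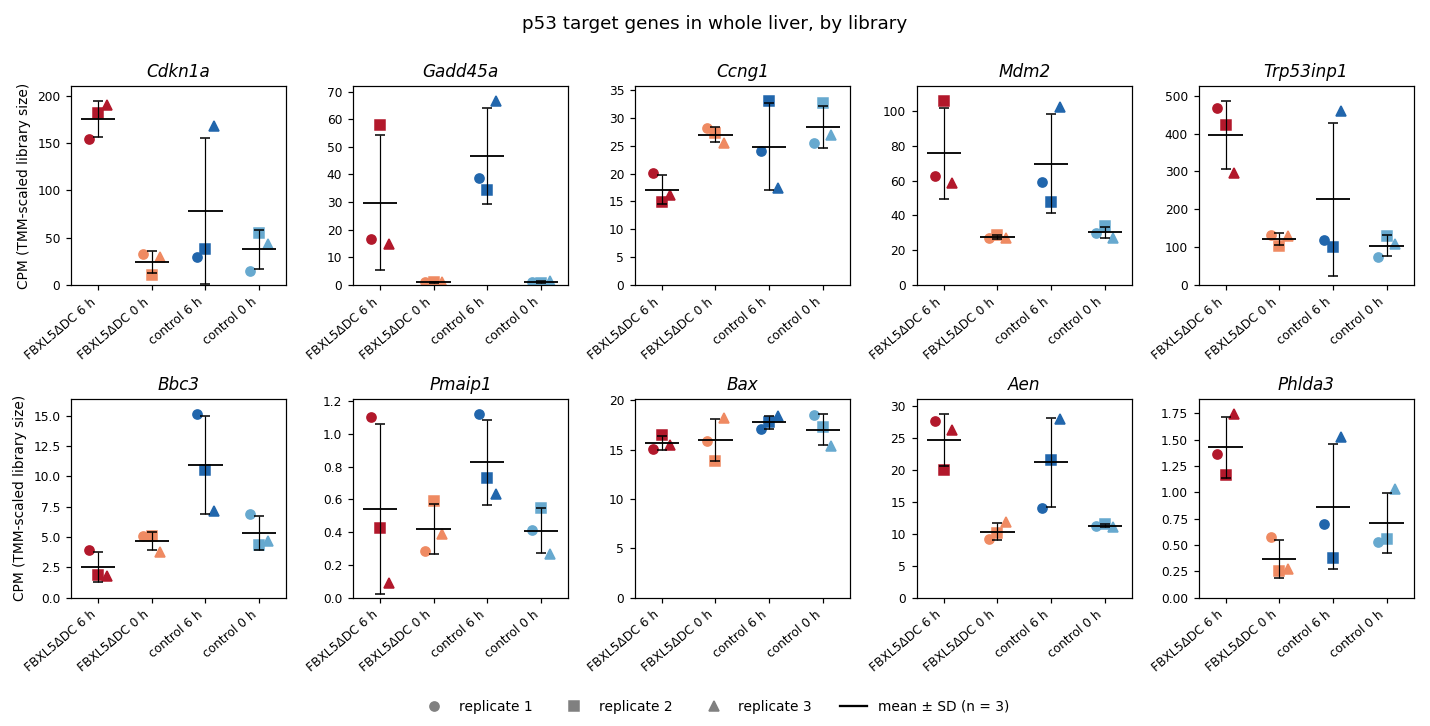
Counts scaled to library size (CPM, y axes from 0, each with its own scale) of the 10 p53 targets in the 4 groups of 3 livers; points are libraries, with 1 symbol shape per replicate number, and bars are mean ± SD. Cdkn1a reached 154 to 191 CPM in FBXL5ΔDC 6 h livers, while control 6 h replicate 3 (168 CPM) lay far above control 6 h replicates 1 and 2 (29.3 and 37.5 CPM); Bbc3 had its lowest mean in FBXL5ΔDC 6 h livers (2.52 CPM) and its highest in control 6 h livers (10.9 CPM).

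The feedback gene came first in the pathway's order. Mdm2 (chr10:117688875-117710758, minus strand, GRCm38) encodes the ligase that marks p53 for degradation. It had 62.7, 106 and 58.8 CPM in FBXL5ΔDC 6 h livers, against 27.1, 28.8 and 26.7 CPM in FBXL5ΔDC 0 h livers. Every treated liver was above every untreated one, and replicate 2 was the highest. The log2 change was 1.46 (SE 0.27, edgeR adjusted p = 0.00202), and it kept its call when any 1 of the 12 libraries was left out (log2 1.14 to 1.61).

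Cdkn1a (chr17:29090976-29100727, plus strand, GRCm38) encodes p21, which binds and inhibits cyclin-dependent kinases and is the best known arrest gene downstream of p53. Its promoter is shown because it held the closest match to the p53 consensus element among the targets. The consensus element is a pair of 10-base half-sites. Cdkn1a has more than 1 RefSeq start, and the window at its other start (chr17:29093519-29093818) had 5 mismatches at best. The run below is the 250 bases before the upstream start (GRCm38.p6, chr17:29090729-29090978, plus strand), with a full match to both half-sites in capitals.
Cdkn1a upstream: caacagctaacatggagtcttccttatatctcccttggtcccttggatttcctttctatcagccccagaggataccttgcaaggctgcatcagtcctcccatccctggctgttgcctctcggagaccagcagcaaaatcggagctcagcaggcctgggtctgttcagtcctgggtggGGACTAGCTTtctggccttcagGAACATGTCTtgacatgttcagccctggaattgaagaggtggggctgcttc
Cdkn1a had 154, 182 and 191 CPM in FBXL5ΔDC 6 h livers, against 33.0, 10.6 and 28.9 CPM in FBXL5ΔDC 0 h livers. The groups were far apart. The SD was 19.2 CPM among the treated livers and 11.9 CPM among the untreated ones. Relative to the mean, the spread was wider among the untreated livers (49.2% against 10.9%), where replicate 2 was the low one. The log2 change was 2.86 (SE 0.76, edgeR adjusted p = 0.0184). The call ended without FBXL5ΔDC 0 h replicate 2 (log2 2.50, edgeR adjusted p = 0.066) and without FBXL5ΔDC 0 h replicate 3 (log2 3.01, edgeR adjusted p = 0.0555).

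Gadd45a (chr6:67035096-67037457, minus strand, GRCm38) binds PCNA and stress kinases and takes part in cell cycle arrest and DNA repair. It had 16.6, 58.0 and 14.6 CPM in FBXL5ΔDC 6 h livers, against 0.815, 0.838 and 0.983 CPM in FBXL5ΔDC 0 h livers. The untreated livers lay within a narrow band close to 1 CPM, and replicate 2 was again the highest treated liver. The log2 change was 5.08 (SE 0.57, edgeR adjusted p = 0.000195), the largest of the 10 targets, and it kept its call in all 12 fits that left out 1 library (log2 4.15 to 5.40).

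Ccng1 (chr11:40748552-40755311, minus strand, GRCm38) encodes a cyclin that recruits protein phosphatase 2A to MDM2. It moved against the other called targets, with 20.1, 15.0 and 16.2 CPM in FBXL5ΔDC 6 h livers and 28.3, 27.3 and 25.6 CPM in FBXL5ΔDC 0 h livers. All treated livers were below all untreated ones. Its log2 change of −0.66 (SE 0.20, edgeR adjusted p = 0.0271) was small, and the call ended without FBXL5ΔDC 0 h replicate 1, 2 or 3 and without FBXL5ΔDC 6 h replicate 2 or 3 (edgeR adjusted p = 0.0535 to 0.0896).

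Of the apoptosis genes, the nuclease gene rose and the BCL2 family genes did not. Aen (chr7:78895854-78911209, plus strand, GRCm38), an exonuclease that digests DNA in apoptotic cells, had 27.8, 20.1 and 26.3 CPM in FBXL5ΔDC 6 h livers and 9.15, 10.1 and 11.8 CPM in FBXL5ΔDC 0 h livers. The groups did not overlap, the log2 change was 1.26 (SE 0.22, edgeR adjusted p = 0.00138), and the call held in all 12 fits that left out 1 library. Bbc3 (chr7:16308393-16318205, plus strand, GRCm38) encodes PUMA, a BH3-only protein that blocks the anti-apoptotic BCL2 proteins. It had 3.93, 1.84 and 1.79 CPM in FBXL5ΔDC 6 h livers, against 5.10, 5.11 and 3.77 CPM in FBXL5ΔDC 0 h livers. FBXL5ΔDC 6 h replicate 1 lay just above FBXL5ΔDC 0 h replicate 3, so the groups overlapped, and the log2 change of −0.89 (SE 0.35) had an edgeR adjusted p = 0.0774. Without FBXL5ΔDC 6 h replicate 1 the fall was called (log2 −1.37, edgeR adjusted p = 0.0147), as it was without control 6 h replicate 3 (log2 −0.89, edgeR adjusted p = 0.041).

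Bax and Pmaip1 gave contrasting kinds of negative result. Bax (chr7:45461697-45466898, minus strand, GRCm38), which forms pores in the outer mitochondrial membrane, had 15.1, 16.5 and 15.5 CPM in FBXL5ΔDC 6 h livers and 15.9, 13.9 and 18.2 CPM in FBXL5ΔDC 0 h livers. Its log2 change of −0.03 had a 95% confidence interval of −0.33 to 0.27 (edgeR adjusted p = 0.905). Pmaip1 (chr18:66458533-66465565, plus strand, GRCm38) encodes NOXA, another BH3-only protein, and was the scarcest target, with 1.11, 0.427 and 0.0894 CPM in FBXL5ΔDC 6 h livers and 0.286, 0.588 and 0.387 CPM in FBXL5ΔDC 0 h livers. The treated livers held between 6 and 72 estimated counts of it and spanned both sides of the untreated ones. The 95% confidence interval of its log2 change, −1.22 to 1.95 (edgeR adjusted p = 0.759), took in a change of the size of Mdm2's (1.46).

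The remaining targets act on survival signalling, autophagy and p53 itself, and both are also known to promote apoptosis. Phlda3 (chr1:135766119-135769136, plus strand, GRCm38) carries a pleckstrin homology domain that competes with AKT for membrane lipids and so restrains survival signalling. It was scarce, with 1.37, 1.17 and 1.74 CPM in FBXL5ΔDC 6 h livers and 0.572, 0.250 and 0.268 CPM in FBXL5ΔDC 0 h livers, and the groups did not overlap. Its log2 change was 1.97 (SE 0.58, edgeR adjusted p = 0.0212). The call ended without FBXL5ΔDC 0 h replicate 2 or 3 and without FBXL5ΔDC 6 h replicate 3 (edgeR adjusted p = 0.0643 to 0.0859). Trp53inp1 (chr4:11156431-11174379, plus strand, GRCm38) encodes a stress protein that promotes p53 activity and autophagy. It was the most abundant target, with 469, 424 and 296 CPM in FBXL5ΔDC 6 h livers and 133, 103 and 129 CPM in FBXL5ΔDC 0 h livers. All treated livers were above all untreated ones, with a log2 change of 1.70 (SE 0.51, edgeR adjusted p = 0.0298). That call ended without FBXL5ΔDC 0 h replicate 1, 2 or 3, without FBXL5ΔDC 6 h replicate 1 or 2 (edgeR adjusted p = 0.0746 to 0.102), and with no filter on low counts (edgeR adjusted p = 0.0781).

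Counted by separation alone, 6 targets had all 3 FBXL5ΔDC 6 h livers above all 3 FBXL5ΔDC 0 h livers, against 24.2% of all tested genes, and 1 had them all below, against 24.5%. Without FBXL5ΔDC 0 h replicate 2 or without FBXL5ΔDC 0 h replicate 3, only 3 targets remained called, Mdm2, Gadd45a and Aen. In those fits the share of all tested genes that was called also fell, to 20.7% and 21%, against 30.1% with all libraries.

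In control livers Mdm2, Gadd45a and Aen rose at 6 h, no target fell, and the other 7 did not pass. The rise of Gadd45a was 50.4-fold, that of Mdm2 2.31-fold and that of Aen 1.88-fold. Of all tested genes, 6.36% rose and 4.20% fell in the same test, 10.6% in all. The median log2 change was 1.03 over the 10 targets and 0.03 over all tested genes. For 5 targets (Mdm2, Gadd45a, Bbc3, Pmaip1 and Aen) all control 6 h livers were above all control 0 h livers, against 15.3% of all tested genes.

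Gadd45a had 38.7, 34.4 and 66.6 CPM in control 6 h livers, against 0.955, 0.655 and 1.16 CPM in control 0 h livers. Its log2 change was 5.66 (SE 0.58, edgeR adjusted p = 0.000315) and was called in all 12 fits that left out 1 library. Control 6 h replicate 3 was the highest liver, and without it the log2 change was 5.31 (edgeR adjusted p = 0.00102). Mdm2 had 59.4, 48.0 and 102 CPM in control 6 h livers and 30.0, 33.6 and 27.2 CPM in control 0 h livers. The groups did not overlap (log2 1.21, SE 0.27, edgeR adjusted p = 0.0156), and without control 6 h replicate 3 the change was 0.83 (edgeR adjusted p = 0.0252). Its call ended without control 0 h replicate 1 (edgeR adjusted p = 0.0549) or replicate 3 (edgeR adjusted p = 0.0679). Aen had 14.1, 21.6 and 28.0 CPM in control 6 h livers and 11.2, 11.6 and 11.1 CPM in control 0 h livers. The untreated livers were nearly equal and the treated ones were spread widely above them (log2 0.91, SE 0.22, edgeR adjusted p = 0.0206; log2 0.66 and adjusted p = 0.0463 without control 6 h replicate 3). The call of Aen ended without control 0 h replicate 1, 2 or 3 (edgeR adjusted p = 0.0682 to 0.0725). Without those libraries the share of all tested genes that was called also fell, to 5.54%, 4.13% and 4.64%, against 10.6% with all libraries.

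Cdkn1a and Trp53inp1 were high in 1 of the 3 treated control livers. Cdkn1a had 29.3, 37.5 and 168 CPM in control 6 h livers, against 14.4, 55.1 and 43.2 CPM in control 0 h livers. Replicate 3 alone was above the untreated range, and the log2 change of 1.06 (SE 0.72, edgeR adjusted p = 0.422) became −0.17 (edgeR adjusted p = 0.934) without it. Trp53inp1 had 118, 99.4 and 461 CPM in control 6 h livers and 74.4, 130 and 107 CPM in control 0 h livers. Here too replicates 1 and 2 lay within the untreated range, and the log2 change of 1.12 (SE 0.51, edgeR adjusted p = 0.203) became 0.07 (edgeR adjusted p = 0.934) without replicate 3. Phlda3 was likewise highest in replicate 3, with 0.697, 0.371 and 1.52 CPM in control 6 h livers and 0.531, 0.560 and 1.03 CPM in control 0 h livers (log2 0.28, edgeR adjusted p = 0.828; log2 −0.41 and adjusted p = 0.79 without replicate 3).

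For the BH3-only genes, replicate 3 was the lowest of the treated control livers. Bbc3 had 15.2, 10.5 and 7.15 CPM in control 6 h livers, against 6.90, 4.37 and 4.65 CPM in control 0 h livers. All treated livers were above all untreated ones. The log2 change was 1.04 (SE 0.35, edgeR adjusted p = 0.0767). The rise was called without control 6 h replicate 3 (log2 1.27, edgeR adjusted p = 0.029) and without FBXL5ΔDC 6 h replicate 1 (log2 1.04, edgeR adjusted p = 0.0487). DESeq2, which called 16.3% of all tested genes against 10.6% in edgeR, also called it (log2 1.03, adjusted p = 0.0333). Pmaip1 had 1.12, 0.729 and 0.632 CPM in control 6 h livers and 0.411, 0.546 and 0.269 CPM in control 0 h livers (log2 1.02, SE 0.73, edgeR adjusted p = 0.446; log2 1.18 and adjusted p = 0.459 without replicate 3). Bax, at 17.1, 17.8 and 18.4 CPM in control 6 h livers and 18.5, 17.3 and 15.3 CPM in control 0 h livers, had a log2 change of 0.06 with an interval of −0.24 to 0.36, and of 0.04 without replicate 3. Ccng1 had 24.1, 33.1 and 17.5 CPM in control 6 h livers and 25.6, 32.8 and 26.9 CPM in control 0 h livers, and only replicate 3 was below the untreated range (log2 −0.19, edgeR adjusted p = 0.638; log2 0.01 and adjusted p = 0.992 without it).

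**Figure D2:**
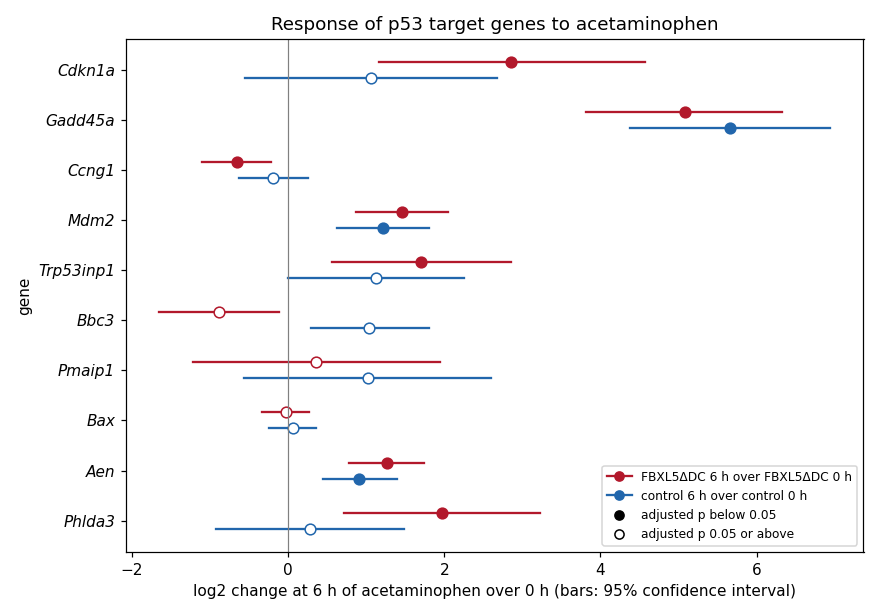
Log2 change at 6 h of acetaminophen over 0 h (x axis) of each p53 target (y axis) in FBXL5ΔDC livers (red) and control livers (blue), from 3 livers per group; bars are 95% confidence intervals and filled points have an edgeR adjusted p below 0.05. Gadd45a has the largest change in both genotypes (5.08 and 5.66), and Bbc3 lies on opposite sides of 0 (−0.89 and 1.04).

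At 6 h the genotypes differed in 1 target. Bbc3 was 4.34-fold lower in FBXL5ΔDC 6 h livers, at 3.93, 1.84 and 1.79 CPM, than in control 6 h livers, at 15.2, 10.5 and 7.15 CPM. The highest FBXL5ΔDC liver was below the lowest control liver, and the log2 difference was −2.12 (SE 0.36, edgeR adjusted p = 0.00915). In that test 4.51% of all tested genes were lower and 1.35% were higher in FBXL5ΔDC livers, so 1 call in 10 targets is close to the share over all genes. The difference was called in each of the 12 fits that left out 1 library (log2 −2.59 to −1.81, edgeR adjusted p at most 0.0469), including the fit without control 6 h replicate 3 (log2 −2.35, edgeR adjusted p = 0.000246). It was not called when only the 2 groups compared were fitted (log2 −2.12, edgeR adjusted p = 0.122), a fit that called 0.0371% of all tested genes. Summed stellate cell markers were at 167 to 206 CPM in FBXL5ΔDC 6 h livers and 96.3 to 150 CPM in control 6 h livers, and endothelial markers at 189 to 235 CPM and 97.7 to 155 CPM, and their part in the difference was not tested.

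Bax was the other target whose groups did not overlap, at 15.1, 16.5 and 15.5 CPM in FBXL5ΔDC 6 h livers and 17.1, 17.8 and 18.4 CPM in control 6 h livers. Its log2 difference was −0.18 (SE 0.14, edgeR adjusted p = 0.481), and −0.16 without control 6 h replicate 3 (edgeR adjusted p = 0.509). All FBXL5ΔDC livers were below all control livers for 2 targets and above for 0, against 11.2% and 9.74% of all tested genes. The median log2 difference was −0.03 over the 10 targets and −0.01 over all tested genes. Gadd45a, at log2 −0.65 (SE 0.47, edgeR adjusted p = 0.458), overlapped between genotypes: FBXL5ΔDC 6 h replicate 2 lay within the control range and the other FBXL5ΔDC livers below it. Without replicate 2 it was lower in FBXL5ΔDC livers (log2 −1.57, edgeR adjusted p = 0.0346).

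Control 6 h replicate 3 decided the genotype result for Cdkn1a, Trp53inp1 and Ccng1. With all libraries the log2 differences were 1.17 for Cdkn1a (SE 0.72, edgeR adjusted p = 0.379), 0.81 for Trp53inp1 (SE 0.50, edgeR adjusted p = 0.381) and −0.54 for Ccng1 (SE 0.20, edgeR adjusted p = 0.134). Without that liver Cdkn1a was higher in FBXL5ΔDC livers (log2 2.40, SE 0.66, edgeR adjusted p = 0.0337), as was Trp53inp1 (log2 1.87, SE 0.25, edgeR adjusted p = 0.000193), and Ccng1 was lower (log2 −0.74, SE 0.17, edgeR adjusted p = 0.00523). The other 6 targets were not called in either fit. Their log2 differences without and with that liver were 0.50 and 0.12 for Mdm2, −0.30 and −0.65 for Gadd45a, 0.47 and 0.22 for Aen, 1.41 and 0.73 for Phlda3, −0.77 and −0.61 for Pmaip1 and −0.16 and −0.18 for Bax. The number of called targets was then 4, and 23.0% of all tested genes were called, against 5.86% with all libraries. The value of replicate 3 was nearer to the mean of the FBXL5ΔDC 6 h livers than to that of control 6 h replicates 1 and 2 for 6 of the 10 targets (Cdkn1a, Mdm2, Ccng1, Aen, Phlda3 and Trp53inp1) and for 62.3% of all tested genes.

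**Figure D3:**
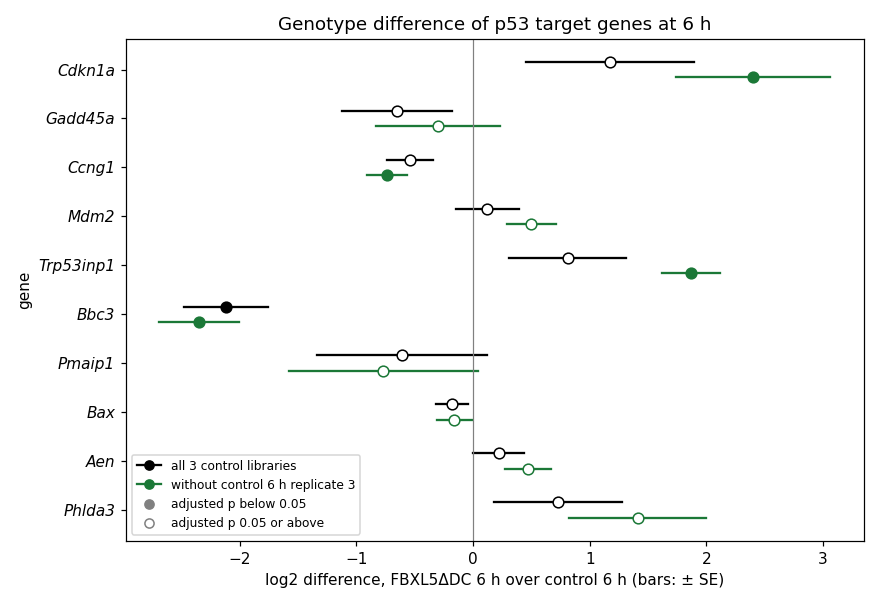
Log2 difference of FBXL5ΔDC 6 h over control 6 h livers (x axis) for each p53 target (y axis), with all 3 control livers (black) and without control 6 h replicate 3 (green); bars are ± SE and filled points have an edgeR adjusted p below 0.05. Bbc3 is called in both fits (−2.12 and −2.35), and Cdkn1a, Ccng1 and Trp53inp1 only without replicate 3.

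Before treatment no target differed between the genotypes. The 10 log2 differences of FBXL5ΔDC 0 h over control 0 h livers ran from −0.96 (Phlda3) to 0.23 (Trp53inp1), and the groups overlapped for every target, whereas 11.7% of all tested genes had groups that did not. None was called, and neither was any other of the 17585 genes (0.00%; 465 genes had an unadjusted p below 0.05 in edgeR, and DESeq2 called 14). The smallest unadjusted edgeR p among the targets was 0.115, for Phlda3. The interval was narrowest for Bax (−0.39 to 0.21) and wide for Cdkn1a (−2.24 to 0.96), which spanned 10.6 to 33.0 CPM in FBXL5ΔDC 0 h livers and 14.4 to 55.1 CPM in control 0 h livers.

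The difference between the genotypes' responses to acetaminophen was tested as an interaction, and 0 of the 10 targets were called, as were 0.290% of all tested genes. Bbc3 came nearest, with a log2 interaction of −1.93 (SE 0.50, unadjusted p = 0.00199, edgeR adjusted p = 0.111), and it was the 1 target with an unadjusted p below 0.05. DESeq2, which called 4.15% of all tested genes in the interaction, called it (log2 −1.91, adjusted p = 0.0114). So did edgeR without control 6 h replicate 3 (log2 −2.16, adjusted p = 0.00658). Without that liver Trp53inp1 was called too (log2 1.64, edgeR adjusted p = 0.00471), and Cdkn1a had a log2 interaction of 3.03 (edgeR adjusted p = 0.0517), against 1.80 (edgeR adjusted p = 0.458) with all libraries. In that fit 13.7% of all tested genes were called.

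Levels of different genes were compared per length, as TPM (counts scaled by the exon length of each gene and to the library), given as mean ± SD of 3 livers. In FBXL5ΔDC 6 h livers the order was Trp53inp1 (113 ± 17.9 TPM), Cdkn1a (93.3 ± 17.9), Gadd45a (30.2 ± 22.4), Mdm2 (27.5 ± 7.11), Bax (18.7 ± 1.80), Ccng1 (9.14 ± 1.63), Aen (8.06 ± 1.91), Bbc3 (2.21 ± 1.02), Phlda3 (1.74 ± 0.555) and Pmaip1 (0.357 ± 0.343). Neighbours in that order lay within 1 SD of each other in several places, such as Gadd45a and Mdm2, Ccng1 and Aen, and Bbc3 and Phlda3. In FBXL5ΔDC 0 h livers Trp53inp1 (36.8 ± 4.55 TPM) was followed by Bax (19.9 ± 2.57), Ccng1 (15.1 ± 0.775) and Cdkn1a (13.3 ± 6.49), and Gadd45a was eighth (0.976 ± 0.0994). In control 6 h livers Gadd45a (59.7 ± 15.7 TPM) stood between Trp53inp1 (76.1 ± 61.0) and Cdkn1a (47.9 ± 43.1), with spreads that overlapped. In control 0 h livers the leading levels were Trp53inp1 (36.4 ± 8.79 TPM), Bax (24.7 ± 2.99) and Cdkn1a (23.8 ± 12.8), and Gadd45a had 1.19 ± 0.332 TPM. Pmaip1 was the lowest target in each of the 4 groups.

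Trp53 itself was measured beside its targets, although p53 is regulated mainly as a protein. It had 11.8, 11.5 and 14.7 CPM in FBXL5ΔDC 6 h livers, 12.1, 12.3 and 12.8 CPM in FBXL5ΔDC 0 h livers, 19.3, 19.4 and 21.3 CPM in control 6 h livers, and 14.5, 12.2 and 15.4 CPM in control 0 h livers. The control 6 h livers were above all others, and control 6 h replicate 3 did not stand apart. The log2 difference of FBXL5ΔDC 6 h over control 6 h livers was −0.66 (SE 0.15, edgeR adjusted p = 0.0238). It was also called without control 6 h replicate 3 (log2 −0.61, edgeR adjusted p = 0.0101), but not without control 6 h replicate 1 or 2 (edgeR adjusted p = 0.0692 and 0.069) or FBXL5ΔDC 6 h replicate 1 or 2 (0.0867 and 0.0978). The rise in control livers (log2 0.51, SE 0.15, edgeR adjusted p = 0.0434) was called in 1 of the 12 fits that left out 1 library, the one without FBXL5ΔDC 6 h replicate 3, and its adjusted p reached 0.184. In FBXL5ΔDC livers the log2 change was 0.03 (edgeR adjusted p = 0.896). Mdm4, which encodes the partner that inhibits p53 together with MDM2, had log2 changes of 0.15 in FBXL5ΔDC livers and 0.04 in control livers, with edgeR adjusted p = 0.605 and 0.926.

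A list of 24 other p53 targets was compared with the 10, and all 24 were tested. In FBXL5ΔDC livers 5 rose and 2 fell at 6 h (median log2 0.34, against 0.02 over all tested genes), while 15.0% of all tested genes rose and 15.1% fell. The number that fell was 1 without FBXL5ΔDC 0 h replicate 1, 2 or 3 or FBXL5ΔDC 6 h replicate 3, and 3 without FBXL5ΔDC 6 h replicate 2 or control 6 h replicate 3. These fits called 20.7% to 34.1% of all tested genes, against 30.1% with all libraries. Apaf1, the scaffold of the apoptosome, was at 11.1 ± 1.67 CPM in FBXL5ΔDC 6 h livers and 1.36 ± 0.381 CPM in FBXL5ΔDC 0 h livers (SD, n = 3 each; log2 3.04, SE 0.32, edgeR adjusted p = 8.92e-05). Btg2, an antiproliferative gene, was 38.8-fold higher (log2 5.28, edgeR adjusted p = 0.000629), and the stress kinase gene Plk2 and the RNA-binding protein gene Zmat3 rose by 1.34 and 1.36 on the log2 scale. These 4 calls held in each fit that left out 1 library. In control livers 5 rose and 2 fell (median log2 0.50, against 0.03), while 6.36% of all tested genes rose and 4.20% fell. Only 2 rose without control 6 h replicate 3 or without control 0 h replicate 1, 2 or 3. The number was 3 without FBXL5ΔDC 0 h replicate 2 or 3 or FBXL5ΔDC 6 h replicate 3, and 6 without control 6 h replicate 1. Of all tested genes, 4.13% to 5.54% were called in either direction without a control 0 h library, and 9.08% without control 6 h replicate 3, against 10.6% with all libraries. Gdf15, Apaf1 and Plk3 were called in 4, 3 and 7 of the 12 fits that left out 1 library, and Fas, which fell with all libraries, in 2. The calls that held in every such fit were those of Btg2 (log2 4.11) and Plk2 (log2 1.32), which rose, and Ei24, an endoplasmic reticulum protein gene of autophagy, which fell (log2 −0.85, edgeR adjusted p = 0.000805). Between the genotypes at 6 h, 3 were higher and 1 lower in FBXL5ΔDC livers, against 1.35% and 4.51% of all tested genes. Without control 6 h replicate 3, 6 were higher and 2 lower, while 23% of all tested genes were called. Apaf1 (11.1 ± 1.67 CPM in FBXL5ΔDC 6 h livers and 3.50 ± 1.40 CPM in control 6 h livers; log2 1.67, SE 0.30, edgeR adjusted p = 0.0113) and Ei24 (227 ± 23.5 CPM and 152 ± 6.33 CPM; log2 0.58, SE 0.11, edgeR adjusted p = 0.013) were called in all 12 fits that left out 1 library. Perp, a desmosome gene, was called in 2 of them, without control 6 h replicate 3 and without FBXL5ΔDC 6 h replicate 3 (edgeR adjusted p up to 0.174 in the others), and the stress gene Sesn2 in all except those without control 6 h replicate 2, FBXL5ΔDC 6 h replicate 2 or FBXL5ΔDC 6 h replicate 3. Without control 6 h replicate 3, Apaf1 had a log2 difference of 2.02 and Ei24 of 0.54.

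Among the 13 BCL2 family genes beside Bax, Bbc3 and Pmaip1, 4 rose and 5 fell in FBXL5ΔDC livers at 6 h (median log2 −0.53), against 15.0% and 15.1% of all tested genes. Only 2 rose without FBXL5ΔDC 0 h replicate 2 or 3 or FBXL5ΔDC 6 h replicate 1 or 2, fits that called 20.7% to 24% of all tested genes. Bcl2 was called in 6 and Bcl2l1 in 7 of the 12 fits that left out 1 library. Bcl2l11, which encodes the BH3-only protein BIM, rose by 1.98 on the log2 scale (20.7 ± 3.50 CPM in FBXL5ΔDC 6 h livers and 5.23 ± 1.70 CPM in FBXL5ΔDC 0 h livers, edgeR adjusted p = 0.000798), and the anti-apoptotic gene Mcl1 rose by 2.31 (448 ± 119 CPM and 90.3 ± 3.22 CPM). The pro-apoptotic genes Bok (log2 −1.79) and Bad (log2 −1.36) fell. In control livers Bcl2l11 rose (log2 1.62, edgeR adjusted p = 0.00724) and Bok (log2 −1.58) and Bik (log2 −1.43) fell (median log2 0.13), 1 and 2 of 13 against 6.36% and 4.20% of all tested genes. The call of Bik ended without control 0 h replicate 1, control 0 h replicate 2 or control 6 h replicate 2 (edgeR adjusted p = 0.0527 to 0.0783). Between the genotypes at 6 h, Bid and Hrk were lower in FBXL5ΔDC livers (Bid by log2 −1.03, edgeR adjusted p = 0.0312), and these calls held in 5 and 4 of the 12 fits that left out 1 library (edgeR adjusted p up to 0.117 for Bid and 0.127 for Hrk). Both held without control 6 h replicate 3, where 2 genes of the list were higher and 4 lower and 23% of all tested genes were called. Bid encodes a BH3 protein that is activated by caspase cleavage. Hrk, a BH3-only gene, had 0, 0 and 4 estimated counts in FBXL5ΔDC 6 h livers, against 95, 153 and 39 in control 6 h livers.

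Relatives of the arrest genes and of Phlda3 and Trp53inp1 gave calls in both directions. Of 11 such genes, 5 rose and 3 fell in FBXL5ΔDC livers (median log2 0.73), against 15.0% and 15.1% of all tested genes. Phlda1 rose (log2 2.15, edgeR adjusted p = 0.00225), whereas Trp53inp2, the paralog of Trp53inp1, fell (70.9 ± 6.62 CPM in FBXL5ΔDC 6 h livers and 218 ± 7.89 CPM in FBXL5ΔDC 0 h livers, log2 −1.62, edgeR adjusted p = 0.00136). Cdkn1b, which encodes the p21 relative p27, fell by 1.27 on the log2 scale (edgeR adjusted p = 0.000367), and Cdkn2c by 1.40. In control livers Phlda1 rose (log2 2.52), as did Cdkn2b, and Trp53inp2 (log2 −1.15) and Cdkn2c (log2 −1.0) fell. That was 2 in each direction (median log2 0.24), against 6.36% and 4.20% of all tested genes. Cdkn2b was scarce, with 130, 79 and 69 estimated counts in control 6 h livers and 12, 0 and 0 in control 0 h livers. The call of Trp53inp2 ended without control 0 h replicate 2 or 3 (edgeR adjusted p = 0.0823 at most), that of Cdkn2c without control 0 h replicate 1 or 2 (0.092 at most), and that of Cdkn2b without control 0 h replicate 2 or 3, control 6 h replicate 1, or FBXL5ΔDC 6 h replicate 1, 2 or 3 (0.119 at most). At 6 h Cdkn1b was lower in FBXL5ΔDC livers, at 6.40 ± 0.837 CPM, than in control livers, at 12.9 ± 2.53 CPM (log2 −1.01, SE 0.17, edgeR adjusted p = 0.00915). That difference was called in all 12 fits that left out 1 library, and was −1.14 without control 6 h replicate 3.

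A list of cell cycle genes, drawn up as genes repressed downstream of p21, had calls in both directions in FBXL5ΔDC livers. That role was not checked for each gene. Of 20 listed, 18 were tested, and 2 rose (Mcm5 and Pcna) and 2 fell (Cdk2 and Ccnb1) in FBXL5ΔDC livers at 6 h, with a median log2 change of −0.04, against 15.0% and 15.1% of all tested genes. Mcm5, a subunit of the replicative helicase, rose by 1.95 on the log2 scale (edgeR adjusted p = 0.00772). It was scarce, with 60 to 132 estimated counts in FBXL5ΔDC 6 h livers and 22 to 40 in FBXL5ΔDC 0 h livers. Pcna, the DNA polymerase clamp, rose by 0.90, a call that ended in 7 of the 12 fits that left out 1 library (edgeR adjusted p up to 0.129). Cdk2 fell by 0.89 on the log2 scale, except without FBXL5ΔDC 6 h replicate 1 (edgeR adjusted p = 0.0703). Ccnb1 was scarce, with 0 counts in each FBXL5ΔDC 6 h liver and 9 to 28 estimated counts in FBXL5ΔDC 0 h livers, and its call ended in 8 fits (up to 0.105). In control livers Ccne1 and Ccnd1 rose (median log2 0.02) and none fell, against 6.36% and 4.20% of all tested genes, and those calls ended in 8 and 11 fits (up to 0.138 and 0.155). The list of p53 and its regulators held 16 genes, Trp53 among them, of which 13 were tested. In FBXL5ΔDC livers the p53 acetyltransferase gene Kat5 and the ubiquitin ligase gene Rchy1 rose. The ubiquitin ligase gene Cop1 (log2 −0.65) and the DNA damage kinase gene Atm (log2 −1.56) fell. That was 2 in each direction (median log2 0.03), against 15.0% and 15.1% of all tested genes. The call of Kat5 ended without FBXL5ΔDC 0 h replicate 2 (edgeR adjusted p = 0.0574) and that of Rchy1 without FBXL5ΔDC 0 h replicate 1, 2 or 3 or FBXL5ΔDC 6 h replicate 1 or 2 (0.0795 at most).

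No gene of these 5 lists was called between the genotypes at 0 h, with all libraries or in any of the 12 fits that left out 1. In the interaction none was called with all libraries or in 11 of those fits, but the fit without control 6 h replicate 3 called genes of each list, while it called 13.7% of all tested genes, against 0.290% with all libraries. The genes that follow are named because they were called in that fit, after their values were seen. Of the other p53 targets, Apaf1 (log2 interaction 2.31, edgeR adjusted p = 0.00143), Zmat3 (0.92) and the desmosome gene Perp (0.83) were higher and the DNA repair gene Xpc (−0.66) was lower. Of the BCL2 family, the anti-apoptotic genes Bcl2l1 (log2 interaction 3.39) and Mcl1 (1.69) were higher and the pro-apoptotic genes Bid (−1.20), Bad (−0.92) and Hrk were lower. Gadd45b (2.07), Pcna (0.96) and Rchy1 (1.10) were also higher, and Cdkn1b (−1.20), Trp53inp2 (−0.81), Cop1 (−0.55) and Atm (−1.27) lower.

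The same fit changed the other list counts that use control 6 h livers. Between the genotypes at 6 h it called 23.0% of all tested genes. Among the relatives of the arrest genes, 1 gene was higher and 2 were lower in FBXL5ΔDC livers. The counts were 1 and 1 among the cell cycle genes, and 1 and 2 among p53 and its regulators. With all libraries these counts were 0 and 1, 0 and 0, and 0 and 1, the last being Trp53 itself. For 6 h over 0 h in control livers it called 9.08% of all tested genes. There 2 of the other p53 targets rose (Btg2 and Plk2) and 2 fell (Ei24 and Perp), and 1 cell cycle gene rose (Ccnd1) and 1 fell (Cdk2). Neither Trp53 nor any listed regulator of p53 was called. The counts of the BCL2 family and of the relatives of the arrest genes were as with all libraries.

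**Figure D4:**
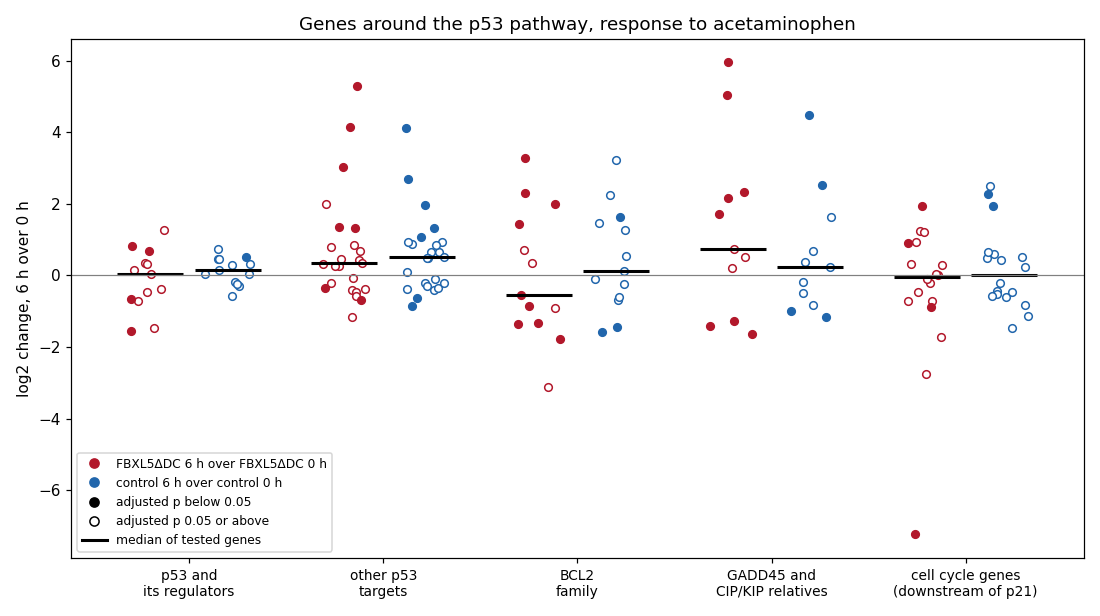
Log2 change at 6 h of acetaminophen over 0 h (y axis) of every tested gene in 5 lists around the p53 pathway (x axis), in FBXL5ΔDC livers (red) and control livers (blue); filled points have an edgeR adjusted p below 0.05 and black lines are list medians. The medians stay between −0.53 and 0.73, and each list has called genes on both sides of 0 in FBXL5ΔDC livers; the lowest point is Ccnb1, whose fitted value rests on 0 counts in FBXL5ΔDC 6 h livers.

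The genes most like 3 of the targets over the 12 libraries were ranked by Pearson correlation of log2 CPM among 17575 other tested genes. All 12 libraries share the split between 0 h and 6 h livers, which sets much of any such value, and no p is given. Cdkn1a was most like Ivns1abp (r = 0.972), Cfap69 (0.967) and Il6ra (0.961). Mdm2 was most like Hnrnpab (0.985), Dusp1 (0.982) and Ier2 (0.980), of which Dusp1 and Ier2 are immediate early genes. Gadd45a was most like the immediate early gene Egr1 (0.988), the growth factor gene Areg (0.985) and Pgd (0.984), which encodes an enzyme of the pentose phosphate pathway.

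Promoter windows of 250 bases before to 50 after a RefSeq start (GRCm38.p6) were searched on both strands for the p53 consensus element, 2 half-sites of 10 bases with a spacer of 0 to 13 bases. Windows were found for 8 of the 10 targets, 12 windows in all, and none for Trp53inp1 and Pmaip1. A full match occurs in 0.0731% of all 32851 windows, 1 mismatch or fewer in 1.09%, 2 or fewer in 10.1%, 3 or fewer in 45.1% and 4 or fewer in 89.3%. The best matches of the targets with at most 2 mismatches are shown because these 5 genes did not share a direction: in FBXL5ΔDC livers 3 rose, Ccng1 fell and Bax was not called. Half-sites are in capitals and the spacer is in lower case.
Cdkn1a: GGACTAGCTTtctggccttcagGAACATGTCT
Ccng1: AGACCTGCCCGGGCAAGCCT
Bax: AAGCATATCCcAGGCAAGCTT
Gadd45a: GGACCTGGTTggctgaGGGCTAGCCC
Aen: GGGCTTGTCCgggcaagGAGCTTCCGC
The Cdkn1a element (chr17:29090906-29090937, first base at −73 from the upstream start) had 0 mismatches. The other Cdkn1a window had 5 mismatches at best, a level that 99.5% of all windows meet. The shares are per window, so a gene with several windows had more than 1 try. Ccng1 (chr11:40755462-40755481, first base at −195) and Bax (chr7:45467090-45467110, first base at −212) had 1 each, and Gadd45a (chr6:67037438-67037463) and Aen (chr7:78895937-78895963) had 2 each. Ccng1's element has no spacer, and 0.0883% of all windows hold one so close without a spacer. Cdkn1a also has such an element with 1 mismatch (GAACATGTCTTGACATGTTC, chr17:29090928-29090947), which shares its first half-site with the match shown. Bbc3 had 3 mismatches at best, and Mdm2 and Phlda3 had 4. A match is a description of letters and shows no binding. The windows of Bbc3 and 1 window of Cdkn1a lie within the annotated gene. Intronic sequence outside the windows was not searched. Of the 3 genes with at most 1 mismatch, Cdkn1a rose, Ccng1 fell and Bax was not called in FBXL5ΔDC livers.

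Other annotated genes overlap 3 of the targets. An opposite-strand gene, E230016M11Rik, overlaps Gadd45a. It averaged 1.49 CPM in FBXL5ΔDC 6 h livers, 0.436 CPM in FBXL5ΔDC 0 h livers, 0.706 CPM in control 6 h livers and 0.220 CPM in control 0 h livers, and since no strand setting of the counting is known here, reads of both genes cannot be told apart. An opposite-strand transcript without values here also overlaps Cdkn1a. A gene annotated as protein-coding, Gm45808, overlaps Bax on the same strand and was at no more than 0.0903 CPM in any library.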

How the data were processed

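The 10 p53 targets and the lists around them were chosen with earlier results of these data known. Trim Galore 0.6.6 and the aligner HISAT2 2.2.1 with the build mm10 are named in the submitters' processing notes. The authors deposited estimated counts per gene for 12 libraries, without normalization, and the counting program, annotation and strand setting are not given in the sources used here. The values were whole, and 26.5% to 28.5% of values from 1 to 40 were multiples of 4, against 25% for an even spread, so a count is not known to be 1 fragment. The planned count test was kept because no rounding was needed. Identifiers matched GENCODE vM21 for 98.1% of genes.

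Genes were filtered with filterByExpr (17585 tested), scaled with TMM factors (0.855 to 1.14) and fitted with 1 coefficient for each of 4 groups in edgeR 4.0.16 (R 4.3.3, glmQLFit with robust dispersions, 8 residual degrees of freedom). P-values were adjusted by Benjamini-Hochberg over all tested genes of a contrast, and calls were made below 0.05. Contrasts were 6 h over 0 h in each genotype, FBXL5ΔDC over control at each time, and the interaction. Log2 CPM for ranking used a prior count of 2. The plan was to name up to 4 genes of each list per contrast, those with the smallest adjusted p, with Trp53 and Mdm4 always. More were named in places, among them genes whose call ended in some fits and genes called in the interaction without control 6 h replicate 3. Alternatives were other scalings, no filter, DESeq2 1.42.0, a 2-group fit, a replicate block, each library left out, and counts divided by 4 (chosen after seeing the data). The edgeR script was tested on simulated data. Replicate numbers did not pair the libraries: the correlation of deviations over 18 same-number pairs was −0.061 to 0.044. No library was a copy of another, and replicates are separate samples per the labels. The marker lists of 10 cell types were summed per library. Monocyte marker sums were 7.63 to 8.12, 1.30 to 2.66, 5.24 to 8.80 and 1.49 to 2.86 CPM in FBXL5ΔDC 6 h, FBXL5ΔDC 0 h, control 6 h and control 0 h livers, with Ly6i at 0 throughout, and dendritic cell sums lay between 4.12 and 7.28 CPM in all libraries.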

Additional observations from a re-analysis of the deposited data

Results flagged for a closer look

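The log2 change of Bbc3 at 6 h over 0 h was −0.89 in FBXL5ΔDC livers and 1.04 in control livers, and neither was called (edgeR adjusted p = 0.0774 and 0.0767). All 3 FBXL5ΔDC 6 h livers (1.79 to 3.93 CPM) were below the mean of the FBXL5ΔDC 0 h livers (4.66 CPM), although FBXL5ΔDC 6 h replicate 1 was above the lowest FBXL5ΔDC 0 h liver (3.77 CPM), and all 3 control 6 h livers (7.15 to 15.2 CPM) were above the mean of the control 0 h livers (5.30 CPM). The log2 interaction was −1.93, and it did not pass the threshold in edgeR (adjusted p = 0.111). Leaving out 1 library at a time gave −2.41 to −1.63 with edgeR adjusted p = 0.00658 to 0.26, and 1 of the 12 fits, the one without control 6 h replicate 3, called it.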

How the results depend on the processing

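Of 940 values of single targets under the alternatives, none changed sign against a call, 902 kept their side of the threshold, 14 gained a call and 24 lost one. The number of called targets with 1 library left out was 3 to 8 for FBXL5ΔDC 6 h over FBXL5ΔDC 0 h (7 with all), 1 to 4 for control 6 h over control 0 h (3 with all), 1 to 4 for FBXL5ΔDC 6 h over control 6 h (1 with all), 0 to 0 for FBXL5ΔDC 0 h over control 0 h, and 0 to 2 for the interaction (0 with all). With 1 library left out, the shares of all tested genes called were, in the same order, 20.7% to 34.1%, 4.13% to 11.8%, 1.36% to 23%, 0% and 0.0054% to 13.7%. When only the 2 groups compared were fitted, 1 target was called for control 6 h over control 0 h and 0 for FBXL5ΔDC 6 h over control 6 h. Those fits called 2.48% and 0.0371% of all tested genes, against 10.6% and 5.86% with all groups, and have fewer residual degrees of freedom. DESeq2 called 1 target, Bbc3, in the interaction, and 4.15% of all tested genes, against 0.290% in edgeR. The replicate block gave 8 called targets in FBXL5ΔDC livers and 4 in control livers, while it called 27.9% and 8.46% of all tested genes. The additions were Bbc3 in both (log2 −0.97 and 1.01, edgeR adjusted p = 0.0134 and 0.0284). The replicate block is only an alternative, since the numbers did not pair the libraries. Median-ratio and upper quartile scaling and counts divided by 4 left each number of called targets as it was. Low counts limit Pmaip1 and Phlda3, and 3 livers per group limit the remainder.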
